A study of Drosophila melanogaster with 2 samples.

Results

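Muscle nuclei of Drosophila melanogaster embryos were chosen by the measured share of 2 genes in a single-nucleus RNA library: Mhc, which encodes the muscle myosin heavy chain, and bt, which encodes Projectin, a giant protein of the sarcomere. A nucleus was a member when the summed unique molecular identifiers (UMIs) of both genes were at least 0.4% of its UMIs and at least 4 in number. This held for 38 of the 318 nuclei in the library (11.9%, exact binomial 95% interval 8.60% to 16.03%), and the remaining 280 nuclei were the comparison. The nuclei came from whole embryos collected over 0 to 24 h and went through scAIR, an assay that digests and religates crosslinked chromatin before 10x Genomics barcoding so as to read RNA, accessible chromatin and chromatin contacts. The library has no second condition and no replicate, neither strain nor number of embryos is stated in the sources used here, and the chromatin library was not used here. No p-value was therefore computed, nuclei of 1 library not being replicates, and every interval covers counting error only.

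Each body wall muscle of the fly embryo is a syncytium made when a founder myoblast fuses with fusion-competent myoblasts, so that many nuclei share a cytoplasm. The fibre then assembles sarcomeres, in which thick filaments of myosin slide along thin filaments of actin, tropomyosin and troponin that are anchored in Z-discs, and it attaches through integrins to tendon cells of the epidermis. The transcription factor Mef2 drives many of the genes involved, and the motor neuron speaks to the fly muscle through glutamate receptors rather than the acetylcholine receptors of vertebrates. A window of a whole day also takes in visceral muscle around the gut and the heart tube, which make sarcomeres too.

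Mhc and bt chose the members, so their levels are given only to describe the choice. Their summed share was 1.13% of UMIs in the median muscle nucleus and 5.91% in the highest, against a median of 0.0285% in the other nuclei, 109 of which had no UMI of either gene. Just inside the threshold lay nuclei at 0.406%, 0.428% and 0.452%, and just outside it lay nuclei at 0.385%, 0.363% and 0.340%. One further nucleus, with 444 UMIs in all, reached 0.450% and missed only the minimum number of UMIs, with 2. Another 70 of the other nuclei had at least 4 UMIs of the pair and too small a share. The step across the threshold was thus gradual, and 13 of the 38 members lay under 0.8%.

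The muscle nuclei held 428270 UMIs (19.2% of the library's 2233526) and the other nuclei 1805256. A muscle nucleus had a median of 4278 UMIs (range 432 to 123309), against 2874.5 UMIs (range 279 to 76485) in the other nuclei. The deepest muscle nucleus carried 28.8% of all muscle UMIs, and some values are also given without it and without the deepest of the other nuclei. It was among the 5% of nuclei with the highest doublet scores of Scrublet, although Scrublet called 7 nuclei doublets and no muscle nucleus among them. Levels below are CPM (counts in 1000000 UMIs), and printed folds are ratios of summed CPM with exact conditional binomial 95% intervals. A gene was counted as higher or lower when the ratio of CPM + 10 passed 2-fold. Free RNA in droplets can give a nucleus UMIs of genes it does not express, so shares of nuclei with a UMI are set beside those of 48 neuron nuclei (median 2137.5 UMIs), chosen after values were seen by 6 synaptic and channel genes.

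Many genes outside the rule differed past 2-fold. Of 7981 genes with at least 20 UMIs in the library, 337 (4.22%) were at least 2-fold higher and 547 (6.85%) at least 2-fold lower in muscle nuclei than in other nuclei, and 117 were at least 4-fold higher. The median log2 fold over all these genes was -0.21 (quartiles -0.54 and 0.11). Without the deepest nucleus of each group, 337 genes were again higher, 285 of them among the first 337, and 768 were lower, 431 of them among the first 547. Of the 337 higher genes, 51 had over 50% of their muscle UMIs in the deepest nucleus. Of the 337, 80 were in any list and 25 in the lists of sarcomere genes, which had 30 of the 7981 genes. The share of the 7981 genes in any list is not given here. The shares of 4.22% and 6.85% are those to set beside the counts of list members below with all nuclei. Counts without the deepest nuclei are to be set beside 337 higher and 768 lower of 7844 genes.

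**Figure D1:**
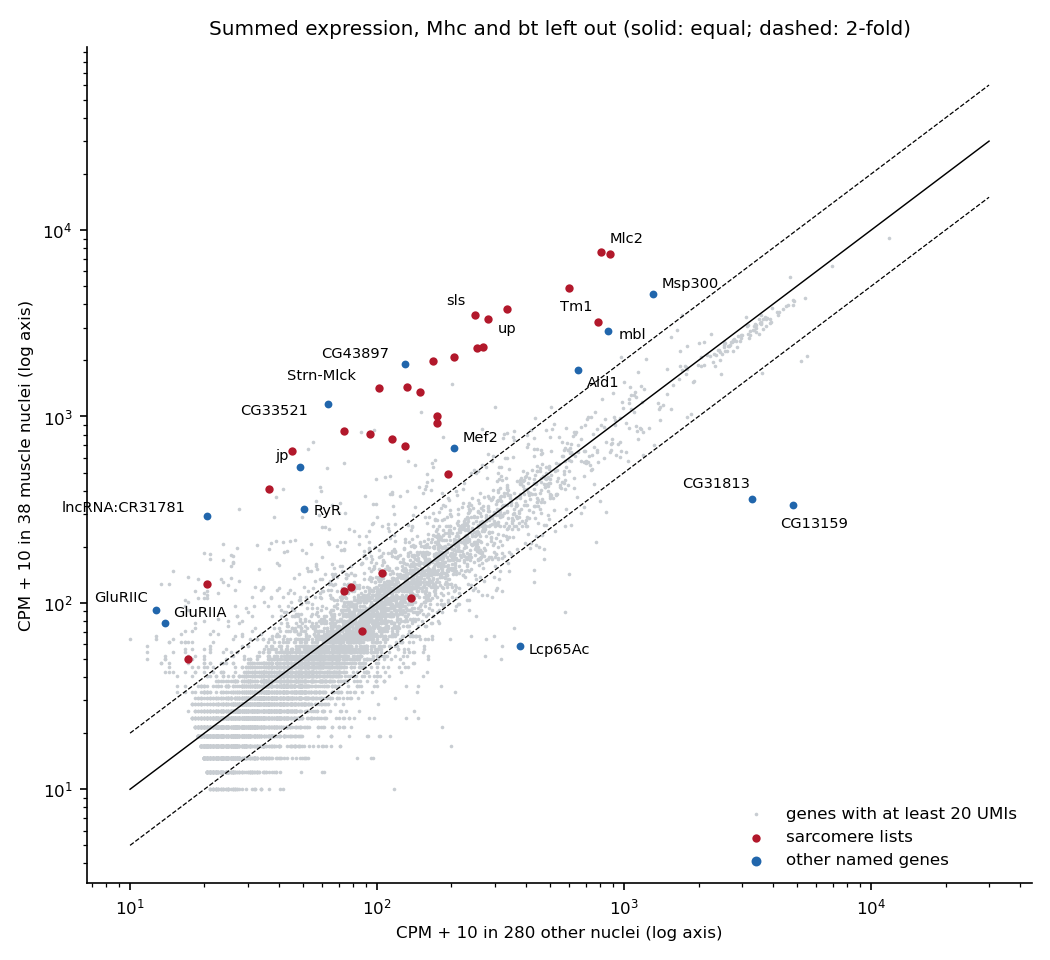
Summed expression of each gene as CPM + 10 in the 38 muscle nuclei (vertical, log axis) and in the 280 other nuclei (horizontal, log axis), 1 point per gene with at least 20 UMIs, with sarcomere genes in red, other named genes in blue, a solid line at equal levels and dashed lines at 2-fold. The 25 higher sarcomere genes lie above the upper dashed line, and CG13159 lies farthest below the lower one.

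Sarcomere genes set the muscle nuclei apart. The 3 lists of thick filament, thin filament and Z-disc genes had 37 members besides Mhc and bt, of which 30 had at least 20 UMIs, 3 had no UMI, 25 were at least 2-fold higher and 0 lower. The minimum was on the library's total, so members high in muscle nuclei passed it more readily, here and in the lists below. Their median log2 fold was 3.09, against -0.21 over all genes, and 3.47 without the deepest nuclei. In single nuclei these genes took 1.12% of UMIs in the lowest muscle nucleus, 5.08% in the median and 20.4% in the highest, against a median of 0.441% and a highest value of 2.88% in the other nuclei. The groups overlapped at their edges: 30 of 38 muscle nuclei lay above every other nucleus, and 19 of 280 other nuclei reached the lowest muscle nucleus. Summed, the lists were 8.32-fold higher in muscle nuclei (interval 8.13 to 8.51), and 10.8-fold higher without the deepest nuclei. Muscle nuclei, with 11.9% of the library's nuclei and 19.2% of its UMIs, held 66.4% of its sarcomere UMIs. Neuron nuclei had a median share of 0.413%, close to that of all other nuclei.

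**Figure D2:**
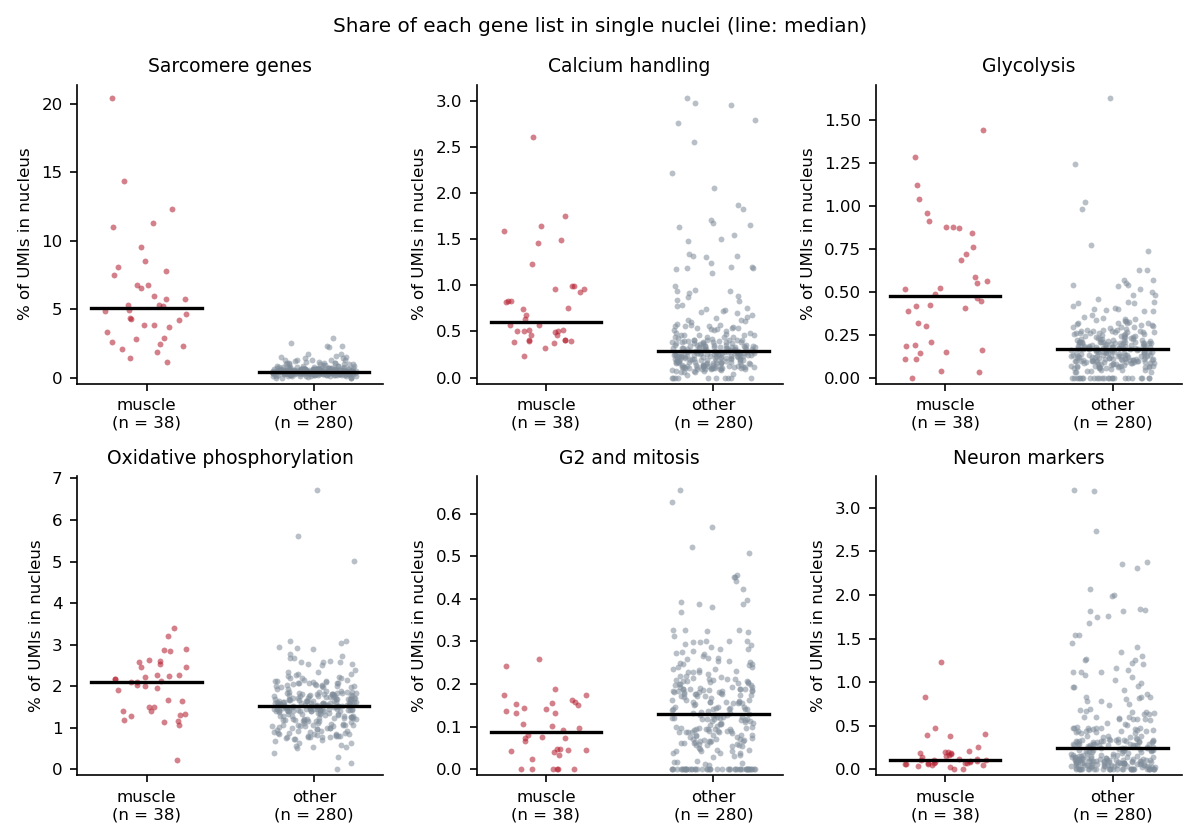
Share of UMIs (percent, vertical axes from 0) taken by 6 gene lists in single nuclei, with the 38 muscle nuclei in red at the left of each panel and the 280 other nuclei in grey at the right, and a black line at each median. Sarcomere genes separate the groups nearly fully (medians 5.08% and 0.441%), while the other 5 lists overlap across most of their range.

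Among thick filament genes, 6 of 7 with at least 20 UMIs were higher. Mlc2, the regulatory light chain of myosin, was found in all 38 muscle nuclei, at 1069 CPM in the lowest, 6990.4 in the median and 27752 in the highest, against a median of 369 CPM and a highest value of 5222 CPM in the other nuclei. The ranges overlapped, but the muscle median lay above every other nucleus. Its summed level was 9.58-fold higher (8.998 to 10.2). Mlc1, the alkali light chain, was 11.6-fold higher (10.6 to 12.8) and had a UMI in 37 of 38 muscle nuclei, 129 of 280 others and 15 of 48 neuron nuclei. Prm, the paramyosin of the filament core, was 11.6-fold higher, and Mf, the thick filament protein Myofilin, 12.4-fold higher. Strn-Mlck, which encodes the large Stretchin-Mlck proteins, had 1406 CPM in muscle nuclei and 91.4 CPM in other nuclei, a ratio of 15.4 (12.9 to 18.4). Unc-89, an obscurin of the M-line, was 11.1-fold higher on few counts, 50 UMIs in muscle nuclei and 19 in others. Without the deepest nucleus of each group the ratios were 17.9 for Prm, 20.7 for Mf and 20.2 for Unc-89. Strn-Mlck, with 39.4% of its muscle UMIs in the deepest nucleus, fell to 13.3. The exception was Mlc-c, the light chain of nonmuscle myosin, at a ratio of 0.751 (0.525 to 1.05). The flight muscle protein gene fln had 0 UMIs in muscle nuclei and 1 UMI in the others.

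Thin filament genes followed the same pattern, with 10 of 11 higher. The gene up encodes troponin T and had 3111 CPM in the median muscle nucleus and 15241 CPM in the highest, against 0 CPM in the median of the other nuclei and 2591 CPM in their highest. One muscle nucleus had no UMI of it, while the muscle median lay above every other nucleus. Its summed level was 12.3-fold higher (11.1 to 13.7). The troponin I gene wupA was 9.61-fold higher (8.58 to 10.8). The tropomyosin genes differed in ratio, Tm2 at 10.6-fold (9.37 to 12.04) and Tm1, which also makes cytoskeletal forms outside muscle, at 4.17-fold (3.87 to 4.49). Tm1 had a UMI in 216 of the 280 other nuclei and 39 of 48 neuron nuclei, and Tm2 in 108 and 15. The troponin C genes TpnC47D and TpnC73F were 9.101-fold and 9.71-fold higher, with TpnC73F at 15.05 without the deepest nuclei. TpnC25D, with 17 UMIs in muscle nuclei and 13 in others, had 70.6% of its muscle UMIs in the deepest nucleus, and its ratio was 5.51 with all nuclei and 2.36 without the deepest, no longer past 2-fold on CPM + 10. Under the minimum of 20 UMIs were TpnC41C, with 9 UMIs in muscle nuclei and 6 in others, and TpnC4, with 0 in muscle nuclei and 4 in others.

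Of the muscle actins, 2 of 4 had enough counts to compare. Act57B had a UMI in 37 of 38 muscle nuclei, 202 of 280 others and 34 of 48 neuron nuclei and was 8.54-fold higher (8.04 to 9.08), and Act87E was 7.14-fold higher (5.94 to 8.59), or 11.03-fold without the deepest nuclei. Both genes encode nearly the same protein, and the sources used here do not say how reads shared by such copies were counted, so the split between them is uncertain. Act88F, the actin of adult flight muscle, had no UMI in the library, and Act79B had 0 UMIs in muscle nuclei and 5 in others. A count of 0 was given a limit of 3 counts, which is 7.005 CPM at the depth of the muscle nuclei. The filament-end genes were closer to the other nuclei, with tmod, which caps pointed ends, at 2.62-fold (2.19 to 3.13) and DAAM, a formin that builds thin filaments, at 1.66-fold (1.15 to 2.37).

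At the Z-disc, 9 of 12 genes were higher. The gene sls encodes Sallimus, the fly relative of titin that links the Z-disc to the thick filament, and was found in all 38 muscle nuclei at 376 CPM in the lowest, 3877 in the median and 18198 in the highest. In the other nuclei its median was 0 and its highest value 4274 CPM, so the lower part of the muscle nuclei overlapped with the others. Its summed ratio was 14.6 (13.1 to 16.3). The LIM-domain gene Mlp60A had 4689 CPM in the median muscle nucleus and a summed ratio of 8.33 (7.73 to 8.97), and its relative Mlp84B one of 13.02 (10.5 to 16.2). The gene tn, which encodes the fly TRIM32 protein, was 14.9-fold higher (10.8 to 21.02). Actn (alpha-actinin, the crosslinker of the Z-disc) was 6.04-fold, Zasp66 9.46-fold and Zasp52 5.74-fold higher, and cher (filamin) 5.58-fold. Without the deepest nuclei Zasp66 was at 17.8 and Zasp52, with 45.2% of its muscle UMIs in the deepest nucleus, at 4.43. The genes of capping protein, which caps the ends of actin filaments in cells of all kinds, were near the other nuclei, cpa at 0.788 (0.498 to 1.205) and cpb at 1.63 (1.14 to 2.29). The list also held mlt, which is named for likeness to a tubulin chaperone and not for the Z-disc, at 1.43 (1.04 to 1.94). Zasp67 and Lasp had no UMI in the library.

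**Figure D3:**
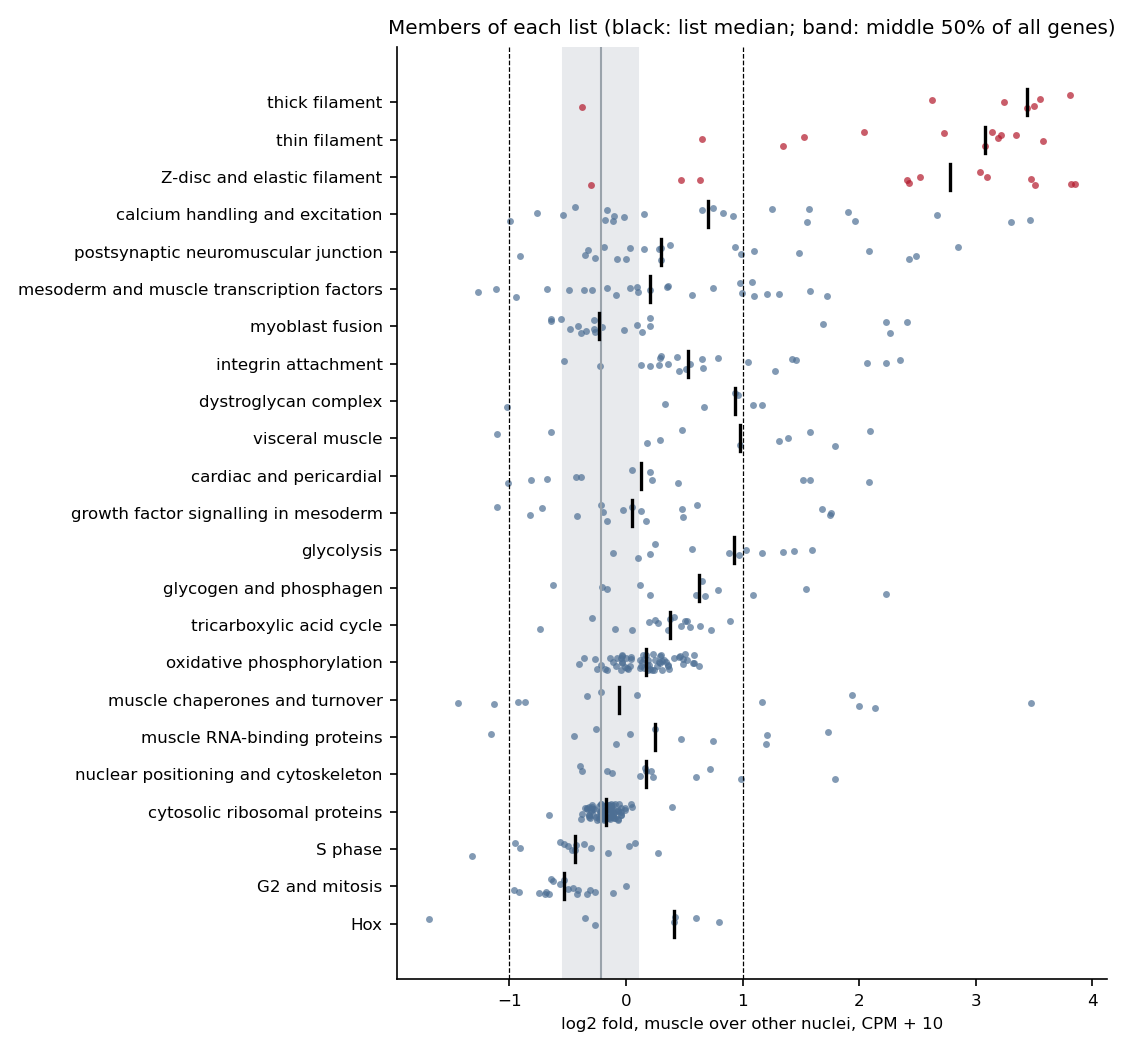
Log2 fold of muscle over other nuclei on CPM + 10 (horizontal) for each member with at least 20 UMIs of the muscle and general lists (rows), with black lines at list medians, the grey band and line at the middle 50% and the median of all 7981 genes, and dashed lines at 2-fold. The 3 sarcomere lists in red have medians of 3.43, 3.08 and 2.78, and the median of the ribosomal list lies inside the band.

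The groups also differed at equal depth. After each nucleus with at least 1000 UMIs was thinned to 1000, which left 36 muscle, 234 other and 39 neuron nuclei, sls had a UMI in 91.7% of muscle nuclei, 12.8% of other nuclei and 5.13% of neuron nuclei. The unthinned shares were 100%, 36.8% and 25%. Mlc2 was found in 100% of thinned muscle nuclei, 38.03% of other nuclei and 46.2% of neuron nuclei. Mlc2 was thus common in nuclei of a type that should lack it, while sls was rare there. The deepest of the other nuclei, with 76485 UMIs, had 2.33% of its UMIs in sarcomere genes, 0.264% in Mhc and bt, and alone held 15.2% of the sarcomere UMIs of the other nuclei.

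The 25 genes with the highest fold among those found in at least 20% of muscle nuclei reached beyond the sarcomere lists. Sarcomere list members among them were sls, Strn-Mlck, up, Mf, Mlp84B, Mlc1, tn, Prm, Tm2, Mlc2, wupA and CG1674. CG33521 had 1187 CPM in the median muscle nucleus and 7299 CPM in the highest, against 0 CPM in the median of the other nuclei and 1797 CPM in their highest. It had a UMI in 32 of 38 muscle nuclei, 52 of 280 other nuclei and 6 of 48 neuron nuclei, and its summed ratio was 21.7 (17.4 to 27.3). CG43897, at 1891 CPM in muscle nuclei and 119.7 CPM in others, had a ratio of 15.8 (13.6 to 18.5). The long noncoding RNA lncRNA:CR31781 had 121 UMIs in 23 muscle nuclei and 19 UMIs in 14 other nuclei, a ratio of 26.8 (16.5 to 46.1) with all nuclei and of 45.4 without the deepest. At 1000 UMIs it was found in 33.3% of muscle nuclei and in 0 of 234 other nuclei, which allows a share of up to 1.28%. The others were l(2)01289, CG45076, frac, jp, CG8519, CG9297, CG8888, zormin (a titin-like protein of the sarcomere), CG10710 and SmydA-4, and their ratios ran between 10.6 for zormin and 35.1 for CG10710. With the deepest nuclei left out, l(2)01289 was at 24.7, CG45076 at 27.1, CG9297 at 21.00 and CG8888 at 22.7, each over 1.5 times its ratio with all nuclei. CG8519 fell from 27.6 to 21.4 and zormin from 10.6 to 8.64. CG10710 rested on 50 UMIs in muscle nuclei and 6 in others. CG45076 was unevenly spread, with a UMI in 18 of 38 muscle nuclei and 6335 CPM in the highest. All 25 stayed at least 2-fold higher under every alternative tried, the lowest value being 2.65-fold. They were picked for the highest folds in the same library that the alternatives reuse, so this is no support of its own. CG10710, CG8519, SmydA-4 and lncRNA:CR31781, with 6, 9, 18 and 19 UMIs in other nuclei, passed the minimum of 20 only with their UMIs in muscle nuclei. In the Release 6 gene table, 11 of the 24 that could be matched overlap another gene, among them CG33521 with PIP4K and CG43897 with Ilp5, and none overlaps Mhc or bt. No source used here says whether counting used strand, so reads of overlapping genes may not be told apart.

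Genes of excitation and calcium release were higher in part. Of 22 such genes with at least 20 UMIs, 8 were higher and 0 lower, with a median log2 fold of 0.70. RyR, the channel that releases calcium from the sarcoplasmic reticulum, had 295 CPM in the median muscle nucleus and 2433 CPM in the highest, against 0 CPM in the median of the other nuclei and 2601 CPM in their highest. Its summed ratio was 7.68 (5.73 to 10.4), and at 1000 UMIs it was found in 36.1% of muscle nuclei, 0.427% of other nuclei and 0 of 39 neuron nuclei, which allows a share of up to 7.69%. The gene jp encodes junctophilin, which ties the reticulum to the surface membrane, and was 13.6-fold higher (10.4 to 18.1). Ca-alpha1D, the L-type calcium channel, was 4.43-fold higher (3.32 to 5.91). SERCA, the pump that returns calcium to the reticulum, named after its values were seen, had 478 UMIs in muscle nuclei and 526 in others, a ratio of 3.83 (3.38 to 4.34). The neuronal calcium channel cac was at 0.472 (0.317 to 0.681), short of 2-fold on CPM + 10, and was found in 40 of 48 neuron nuclei. As a sum the list was 1.79-fold higher in muscle nuclei than in all others, but at 6664 CPM it lay under the 10821 CPM of neuron nuclei, which share its channels.

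The receptors for the motor neuron's glutamate had most of their UMIs in muscle nuclei, at low counts. The receptor subunits GluRIIA to GluRIIE and Neto, their auxiliary subunit, had 150 UMIs in muscle nuclei and 52 in others, a ratio of 12.2 (8.82 to 17.01). At least 1 UMI of these 6 genes was found in 28 of 38 muscle nuclei and 34 of 280 other nuclei (12.1%). At 1000 UMIs the shares were 33.3% of muscle nuclei, 2.14% of other nuclei and 2.56% of neuron nuclei. In the 10 muscle nuclei with no UMI of them, a low level was not detectable at this depth. GluRIIC, a subunit every receptor needs, had 35 UMIs in 16 muscle nuclei and 5 in 5 others (ratio 29.5, interval 11.5 to 96.5). GluRIIE, likewise essential, had a ratio of 11.6 (4.97 to 30.1), and Neto one of 9.54 (5.44 to 17.3). Of the alternative subunits, GluRIIA was at 17.5 (7.49 to 47.2) and GluRIIB at 4.22 (1.57 to 11.3). The intervals of these last 2 overlap. GluRIID, which fell under the minimum of 20 UMIs and is named after its values were seen, had 11 UMIs in muscle nuclei and 3 in others. In the whole postsynaptic list, 6 of 21 genes were higher (28.6%, against 4.22% of all genes), with a median log2 fold of 0.30. Of the 6, GluRIIA, GluRIIB, GluRIIC, GluRIIE and Neto had 7, 10, 5, 8 and 19 UMIs in other nuclei. They passed the minimum of 20 only with their UMIs in muscle nuclei, so the count of higher genes is no support of its own.

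Some regulators of mesoderm and muscle were higher. Of 25 genes, 6 were higher (24%, against 4.22% of all genes) and 2 lower, with a median log2 fold of 0.20. The 2 lower are too few to set against the 6.85% of all genes that were lower. Without the deepest nuclei, 4 were higher and 5 lower, against 337 and 768 of 7844 genes. Mef2 had 748 CPM in the median muscle nucleus and 4629.6 CPM in the highest, against a median of 0 and a highest value of 3901 CPM in the others. It was found in 33 of 38 muscle nuclei and 125 of 280 others (17 of 48 neuron nuclei), and its summed ratio was 3.42 (2.92 to 4.01). The genes shared with tendon cells were higher: how, an RNA-binding protein of muscle and tendon, at 2.35-fold (2.06 to 2.68) and sr, the tendon cell regulator, at 2.31-fold (1.64 to 3.24). The regulator lmd, which specifies fusion-competent myoblasts, was lower, with 4 UMIs in 2 muscle nuclei and 66 UMIs in 46 others. Genes that give single muscles their identity were thinly counted. The founder gene slou had 0 UMIs in muscle nuclei and 21 in others, whose level was 1.66 times a floor of 3 counts in muscle nuclei. That floor leaves out counting error in the other nuclei, so the value is not a bound. The fly MyoD relative nau, named after its values were seen, had 14 UMIs in 8 muscle nuclei and 5 UMIs in 2 others, none of them a neuron nucleus.

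Fusion genes were higher in part. Of 20 genes, 4 were higher (20%, against 4.22% of all genes), while the median log2 fold of -0.23 lay at that of all genes. The list summed to a ratio of 1.67 (1.56 to 1.78), or 1.79 without the deepest nuclei. The higher genes were kirre, the adhesion receptor of founder cells, at 3.31-fold (2.88 to 3.81), mspo, a spondin, at 5.44-fold (4.21 to 7.04), Grip at 6.94-fold (4.79 to 10.1) and Pax (paxillin) at 5.11-fold (4.12 to 6.34). Grip had 56.96% of its muscle UMIs in the deepest nucleus and a ratio of 4.02 without the deepest nuclei. The receptor hbs of fusion-competent myoblasts was at 0.612 (0.414 to 0.88), or 0.438 and past 2-fold lower without the deepest nuclei, and Vrp1 (the fly WIP protein, which acts on actin at the fusion site) at 0.602 (0.375 to 0.927).

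Genes of attachment to tendons and matrix were higher in part. Of 22 integrin attachment genes, 7 were higher and 0 lower, with a median log2 fold of 0.53. The integrin alpha subunit gene if had 418 CPM in the median muscle nucleus and 1482 CPM in the highest, against 0 CPM in the median of the other nuclei and 1653 CPM in their highest, so the ranges overlapped. The ratio was 4.598 (3.64 to 5.81). The transmembrane gene kon, which guides muscles to their tendons, was 5.84-fold higher (4.49 to 7.62), or 4.55-fold without the deepest nuclei, and by (tensin) 3.15-fold. Tsp, the thrombospondin that tendon cells secrete, was 2.62-fold higher with all nuclei and 1.804-fold without the deepest, which had 50% of its muscle UMIs. The basement membrane gene trol (perlecan) was 2.28-fold higher (2.01 to 2.57), while Dg (dystroglycan) at 1.98 (1.69 to 2.33) and Dys (dystrophin) at 1.95 (1.62 to 2.36) lay just under the 2-fold line.

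Nuclei of muscle fibres are held in place by a cage of giant proteins. Msp300, the fly nesprin of that cage, was found in all 38 muscle nuclei at 545 CPM in the lowest, 3581 in the median and 26237 in the highest, against 989 CPM in the median of the others and 17422 in their highest. The groups overlapped along most of their range, and the summed ratio was 3.49 (3.29 to 3.71). On CPM + 10 it was the 1 gene past 2-fold of the 13 in its list (7.69%, against 4.22% of all genes). The gene klar, a nesprin too, was just short of it at a CPM ratio of 2.02 (1.73 to 2.36). Among RNA-binding genes known in muscle, mbl (muscleblind, a splicing regulator) was 3.36-fold higher (3.11 to 3.62) and Fmr1 2.42-fold (1.88 to 3.099). The splicing regulator bru1 of adult flight muscle was lower, at 0.425 (0.306 to 0.579). Of 12 chaperone and turnover genes, 5 were higher (41.7%, against 4.22% of all genes) and 2 lower, with a median log2 fold of -0.06. The small heat shock gene l(2)efl and the co-chaperone gene stv (the fly BAG3) were 4.996-fold and 4.48-fold higher, and Nuak1, a kinase, 4.74-fold. The heat shock genes Hsp67Bc and Hsp23 were at 0.266 and 0.258.

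Glycolysis genes were higher in part. Of 12 glycolysis genes, 5 were higher and 0 lower, and the list summed to 4362 CPM in muscle nuclei and 2168 CPM in others, a ratio of 2.01 (1.903 to 2.13). Without the deepest nuclei the ratio was 2.54 and 7 genes were higher. Neuron nuclei had 4382 CPM of these genes, but the median share per nucleus was 0.474% in muscle nuclei and 0.290% in neuron nuclei. Ald1 (aldolase) had 1675 CPM in the median muscle nucleus and 5489 CPM in the highest, against 467 CPM in the median of the other nuclei and 3767 CPM in their highest. The ranges overlapped widely. Its ratio was 2.74 (2.501 to 3.01), and Ldh (lactate dehydrogenase) reached 3.18 (2.58 to 3.91). Ldh stood at 388 CPM in all muscle nuclei, at 528 CPM in muscle nuclei without the deepest, and at 448 CPM in all neuron nuclei. In glycogen and phosphagen metabolism, 3 of 12 genes were higher, led by Gyg (glycogenin, which primes glycogen) at 5.68-fold (4.09 to 7.94), and Argk, the arginine kinase, lay at 1.76 (1.498 to 2.06). With the deepest nuclei left out, 6 of the 12 were higher, Argk among them at 2.14. With all nuclei, none of 17 genes of the tricarboxylic acid cycle and none of 64 of oxidative phosphorylation passed 2-fold, while 46 of the oxidative phosphorylation genes lay above 1, with a median log2 fold of 0.18. Without the deepest nuclei 3 genes of the cycle were higher and the ratio of their sum was 1.604, against 1.34 with all nuclei, while for oxidative phosphorylation 0 genes were higher and the ratio was 1.32, against 1.12. Cytosolic ribosomal protein genes, none of 85 past 2-fold, had a median of -0.17, near that of all genes.

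Cell cycle genes summed to lower levels in muscle nuclei. The G2 and mitosis list summed to 1069 CPM in muscle nuclei and 1694 CPM in others, a ratio of 0.631 (0.571 to 0.697), with none of 19 genes past 2-fold on CPM + 10, or 2 of them lower without the deepest nuclei. The mitotic kinase polo had a UMI in 10 of 38 muscle nuclei and 96 of 280 others and a CPM ratio of 0.471 (0.292 to 0.726). S phase genes had a ratio of 0.724 (0.655 to 0.799). The median log2 fold was -0.43 for S phase and -0.53 for G2 and mitosis, against -0.21 over all genes. The origin-binding gene Orc1 was the 1 of 15 S phase genes past 2-fold lower, with 4 UMIs in muscle nuclei and 69 in others. That count is near the 6.85% of all genes that were lower.

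Muscle nuclei varied widely among themselves. Over the 38 nuclei, which share a library, the share of sarcomere genes had a Spearman correlation of 0.92 with the share of Mhc and bt that chose them. The correlation was 0.60 with glycolysis, 0.59 with the glutamate receptor genes, 0.51 with the nuclear positioning list, 0.49 with the calcium list and 0.46 with oxidative phosphorylation. It was 0.14 with the number of UMIs, -0.04 with ribosomal proteins and -0.10 with the list of transcription factors. These are descriptions of shares that have a common total. The nucleus with the highest share (20.4% sarcomere genes, 5.91% Mhc and bt) had 4396 UMIs, close to the median depth.

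**Figure D4:**
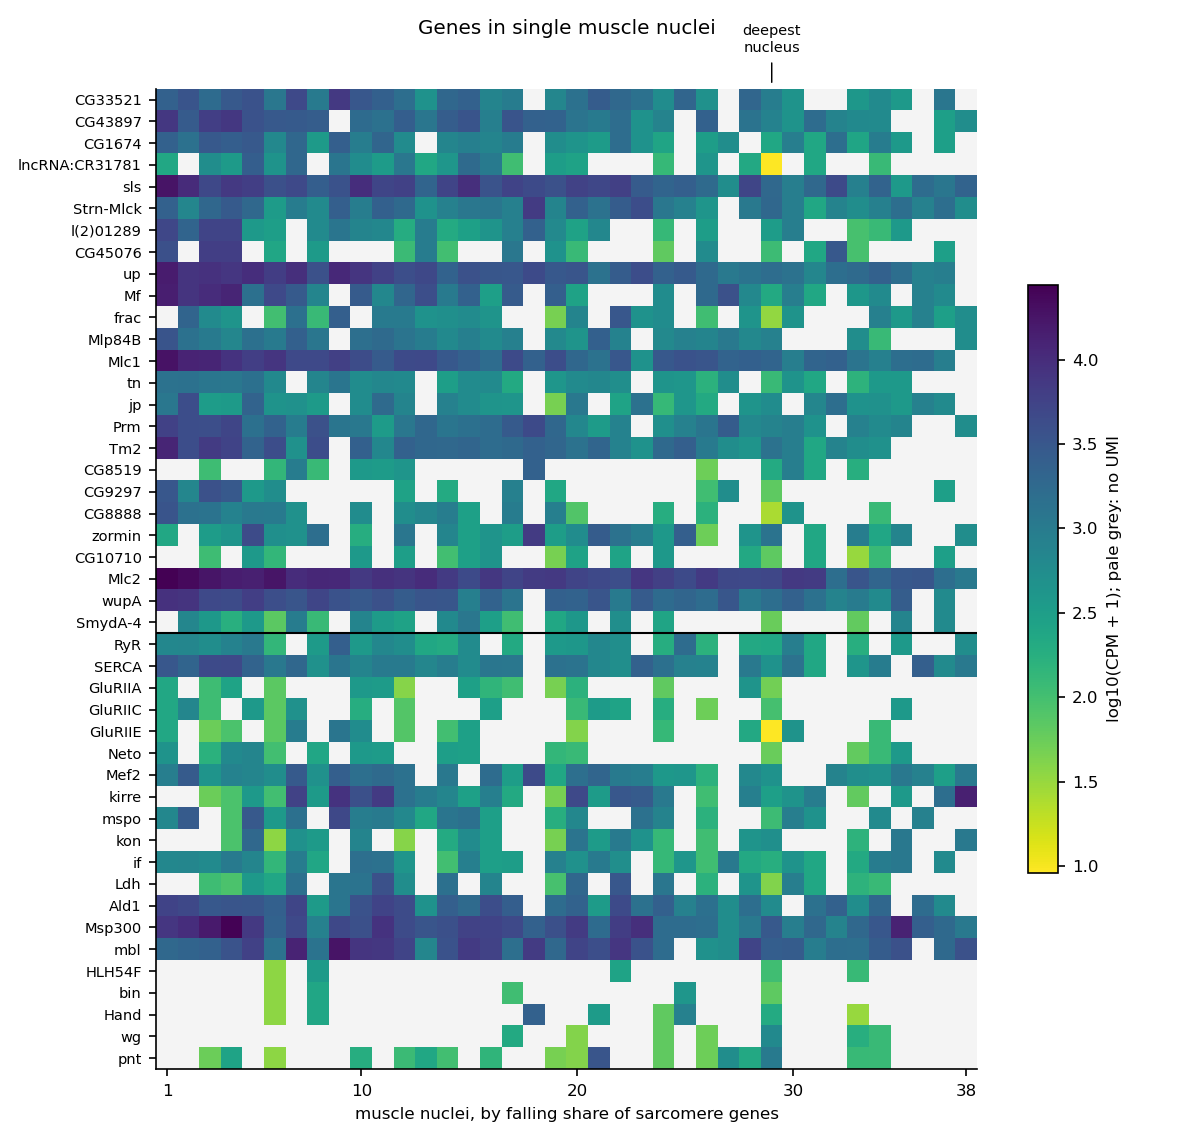
Levels of single genes (rows) in the 38 muscle nuclei (columns, by falling share of sarcomere genes) as log10(CPM + 1), with darker cells higher, pale grey for no UMI, and a line under the 25 genes with the highest fold. sls and Mlc2 fill every column, the GluRII genes fill some, and HLH54F, bin, Hand and wg are found in few nuclei, the deepest among them.

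One nucleus held most of the counts of several regulators. The deepest muscle nucleus had 3.34% sarcomere genes and 7909 genes detected. It held 75 of the 87 muscle UMIs of wg, a Wnt ligand, 128 of 161 of pnt, an ETS factor of receptor tyrosine kinase signalling, 25 of 34 of Hand, a regulator of heart and visceral muscle, and 17 of 24 of org-1, a T-box factor. Of regulators known from visceral mesoderm it held 13 of 22 UMIs of HLH54F and 8 of 13 of bin. wg stood at 608 CPM in it, 39.3 CPM in the remaining muscle nuclei and 53.2 CPM in the other nuclei. Without the deepest nuclei the ratios of wg and pnt, 3.82 and 3.59 with all nuclei, were 0.739 and 1.02, and Hand and org-1 were at 1.59 and 1.32. The visceral list differed with and without it: 5 of 11 genes were higher with all nuclei and 3 without the deepest, and the sum had a ratio of 1.28 with all nuclei and 0.843 without them. The cardiac list had 3 of 12 genes higher with all nuclei and 2 without the deepest, and a ratio of 1.13 with all nuclei and 0.891 without the deepest. The heart regulator tin had 0 UMIs in muscle nuclei and 7 in others. In the growth factor list, htl, the FGF receptor of mesoderm, did not rest on that nucleus, at 4.34 with all nuclei and 4.64 without the deepest. Mef2 was lower in that nucleus (462 CPM) than in the remaining muscle nuclei (748 CPM). Whether it is 1 nucleus or several in a droplet was not tested.

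**Figure D5:**
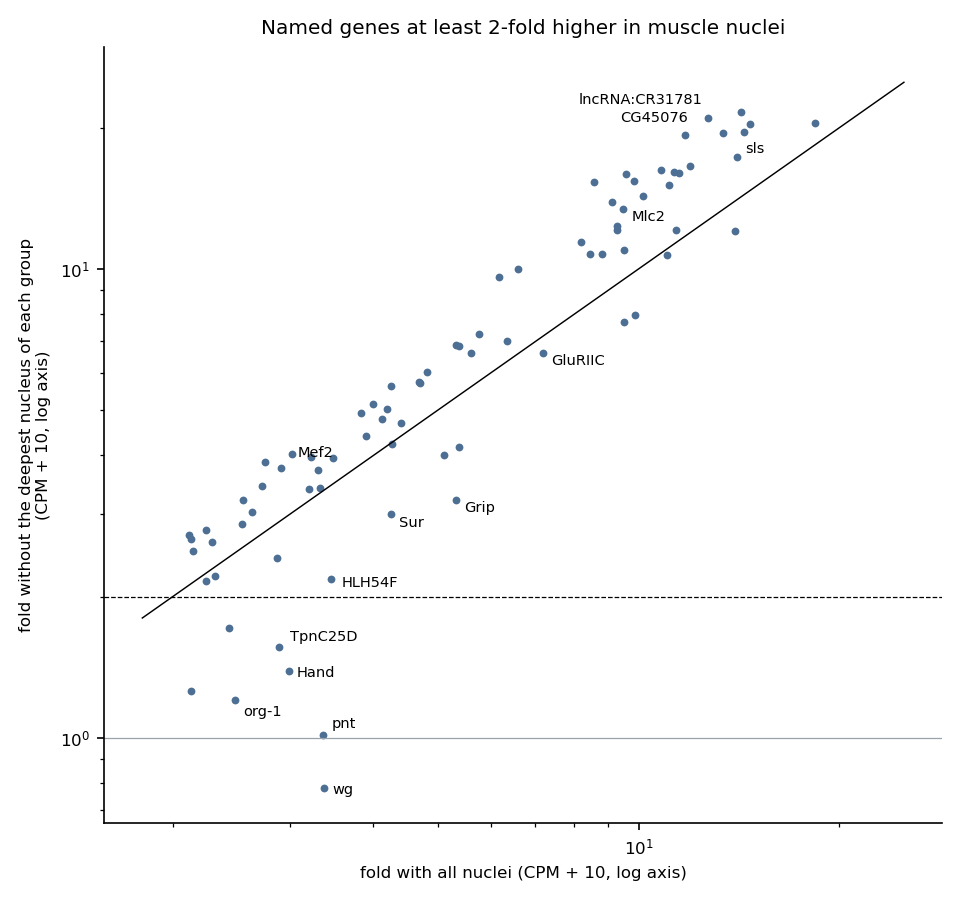
Fold of muscle over other nuclei on CPM + 10 with all nuclei (horizontal, log axis) and without the deepest nucleus of each group (vertical, log axis), 1 point per named gene at least 2-fold higher with all nuclei, with a solid line at equality, a dashed line at 2-fold and a grey line at 1. Most sarcomere genes lie above the diagonal, and wg and pnt drop farthest.

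Hox genes, which mark position from head to tail, were found in most muscle nuclei. A UMI of any of the 8 Hox genes was found in 31 of 38 muscle nuclei, 206 of 280 other nuclei and 42 of 48 neuron nuclei. In those 31 muscle nuclei, among Scr, Antp, Ubx, abd-A and Abd-B, Antp led in 9 nuclei, Ubx in 9, Abd-B in 5, abd-A in 3 and Scr in 2, and 3 were tied. Antp and Abd-B, expressed far apart along the body, were both found in 13 nuclei. Against other nuclei, Scr had a ratio of 1.99 (1.18 to 3.26), Antp of 1.54, Ubx of 1.35, abd-A of 1.35 and Abd-B of 0.822 (0.627 to 1.06). The deepest nucleus had 78 of the 153 muscle UMIs of Antp and 51 of the 101 of abd-A, but 1 of the 70 of Abd-B. Without the deepest nuclei the ratios were 2.35 for Scr, 1.03 for Antp, 1.45 for Ubx, 0.911 for abd-A and 1.11 for Abd-B. The head gene Dfd had 0 UMIs in muscle nuclei and 40 in others, whose level was 3.16 times a floor of 3 counts in muscle nuclei. For pb, with 0 UMIs in muscle nuclei and 17 in others, it was 1.34 times that floor. The floor leaves out counting error in the other nuclei, so these values are not bounds. The gene lab had 3 UMIs in muscle nuclei and 21 in others.

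Markers of other cell types passed 2-fold downward or not at all, apart from those of tendon cells, and few were absent. Of 12 neuron markers, 0 were at 0 UMIs in muscle nuclei and 4 were at least 2-fold lower (1 without the deepest nuclei), and their summed share ran from 0% to 1.23% in muscle nuclei and from 0% to 3.21% in others. Of the muscle nuclei, 2 also met the rule for neuron nuclei. Of the markers with at least 20 UMIs, 4 of 10 of epidermis, 5 of 6 of salivary gland, 3 of 7 of midgut, 2 of 4 of fat body, 1 of 6 of trachea and 1 of 4 of germ cells were lower, and none of these was higher. Over all genes 6.85% were lower, and 1 of 6 or 1 of 4 is too few to set against that share. No marker of glia, hemocytes or amnioserosa passed 2-fold in either direction with all nuclei. Lower without the deepest nuclei were 2 of glia, 2 of germ cells and 2 of midgut. Summed shares were highest at 1.49% in muscle nuclei and 3.03% in others for epidermis markers, 0.861% in muscle nuclei and 14.1% in others for fat body markers and 1.101% in muscle nuclei and 2.29% in others for hemocyte markers. They reached 0.463% in muscle nuclei and 1.27% in others for glia markers, 0.477% in muscle nuclei and 1.46% in others for midgut markers and 0.603% in muscle nuclei and 1.43% in others for trachea markers. The remaining lists reached 0.244% in muscle nuclei and 31.9% in others for salivary gland markers, 0.0915% in muscle nuclei and 0.773% in others for germ cell markers, 0.325% in muscle nuclei and 0.926% in others for amnioserosa markers and 0.512% in muscle nuclei and 1.67% in others for tendon cell markers. At 0 UMIs in muscle nuclei were dysf of trachea, NimC1 of hemocytes, and Lsp2 and Fbp1 of fat body, the last 2 with no UMI in the whole library. Tendon markers went the other way, 4 of 6 being higher, all 4 of which (kon, Tsp, how and sr) are also in muscle lists.

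The genes lowest in muscle nuclei included some with most of their counts in 1 other nucleus. CG13159 had 325 CPM in muscle nuclei and 4817 CPM in others, a ratio of 0.0674 (0.0566 to 0.0797), and 1 other nucleus held 82.6% of its UMIs there. CG31813 was at 0.107, with 68.3% in 1 nucleus. Their medians per nucleus were closer, at 211 CPM in muscle nuclei and 309.7 CPM in others for CG13159, and at 339.5 CPM in muscle nuclei and 388 CPM in others for CG31813. The cuticle gene Lcp65Ac was at 0.133 (0.0817 to 0.205), CG14756 at 0.14 and CG13051 at 0.129, or 0.294 without the deepest nuclei.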

How the data were processed

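The authors deposited raw UMI counts as a matrix of genes by nuclei, with no normalization. Crosslinking, restriction cutting, proximity ligation and 10x Genomics barcoding are per the labels' protocols, and that the counts are of UMIs follows from that platform. The genome build is dm3, per the submitters' processing notes. The sources used here name no aligner, counting program, strand setting or barcode filter. All 318 nuclei were kept, with 279 to 123309 UMIs each.

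Members were chosen by the share of Mhc and bt, both left out of results. The members and the gene lists were chosen with earlier results of these data known, and a few list entries were dropped or respelled after values were seen. Counts were summed over nuclei as CPM. Rankings and calls used CPM + 10 among genes with at least 20 UMIs. Exact 95% intervals are conditional binomial for ratios and Clopper-Pearson for shares. Limits given for a count of 0 are not exact: they are 3 over the nuclei or UMIs counted. For a gene with 0 UMIs in muscle nuclei, the exact 95% interval reaches 8.61 CPM. Named were the 25 highest genes found in at least 20% of muscle nuclei, the 5 lowest, all sarcomere members, up to 4 highest and 2 lowest members of other lists, Hox genes and markers of other cell types. Genes named outside that rule after their values were seen are marked in the text, or are bin, tin and sarcomere members under 20 UMIs. Of the list entries, 418 matched exactly, 14 through an older symbol, 6 by prefix, and 3 were not found. Thinning drew 1000 UMIs per nucleus. Doublets were scored with Scrublet in scanpy 1.11.5 and kept, and leaving out the highest scores was an alternative. Other alternatives changed the share, the number of UMIs, the weighting, the deepest nuclei, the depth, the comparison nuclei, the total, the added CPM and the count minimum. The steps were tested on simulated counts. Python 3.11.15, numpy 2.4.6, scipy 1.17.1 and pandas 2.3.3 were used.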

Additional observations from a re-analysis of the deposited data

How the results depend on the processing

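Each result was recomputed under other settings. Of 81 named genes at least 2-fold higher, 61 stayed so and 75 stayed above 1 under every setting tried. The settings reuse the library in which these genes were called, so the counts are no support of their own. The number of muscle nuclei was 25 at a share of at least 0.8% of UMIs. Genes at least 2-fold lower numbered 313 at a share of 0.2%, 1312 at 0.8%, 1434 with every nucleus weighed the same, 1266 with CPM + 1, 69 with CPM + 50 and 242 among genes with at least 100 UMIs. Genes at least 2-fold higher numbered 215 after thinning, 184 with CPM + 50 and 191 among genes with at least 100 UMIs. The ratio of the sarcomere lists was 10.9 with equal weights, 10.8 without the deepest nuclei, 10.3 after thinning, 12.6 against nuclei under 0.1% of Mhc and bt, 9.77 without the highest doublet scores and 8.11 without Mhc, bt and ribosomal proteins in the total. That of glycolysis was 1.705 at a share of 0.2%, 3.03 at 0.8%, 2.66 with equal weights, 2.54 without the deepest nuclei, 2.76 after thinning and 2.64 without the highest doublet scores. That of the calcium list was 1.59 at 0.2%, 2.12 at 0.8%, 1.95 without the deepest nuclei, 2.14 after thinning and 2.03 without the highest doublet scores, and that of G2 and mitosis was 0.736 at 0.2%.

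Some genes changed direction (folds on CPM + 10). At 0.2% Ccp84Ae was at 3.598 and CG13051 at 4.32. At 0.8% wg was at 0.245, pnt at 0.755 and org-1 at 0.689. The deepest muscle nucleus, with 0.786% of its UMIs in Mhc and bt, was then among the other nuclei. With equal weights wg was at 0.473 and TpnC25D at 0.967. Without the deepest nuclei wg was at 0.781, and without the highest doublet scores, which left out the same muscle nucleus, at 0.807. After thinning org-1 was at 0.539 and Syn2 at 0.369. The cause was not tested. Depth limits the low genes most: by the limit of 3 counts, a count of 0 over the muscle nuclei allows 7.005 CPM. No paired analysis was possible because there is 1 RNA library.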
